A study of Mus musculus with 4 samples.

Results

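Arg1, Arg2, Nos2, Slc7a2, Ass1, Odc1 and Gatm encode enzymes and a transporter that decide where arginine goes in a cell. These 7 genes, of 55450 in the deposited matrix, were chosen by gene symbol, and each had a row of its own. Their UMIs were followed through single cells of 4T1 tumours. A UMI (unique molecular identifier) tags 1 captured transcript molecule, which removes copies made by amplification from the count. Cell classes were set by marker genes among which none of the 7 genes stood.

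Arginine is an amino acid for which several enzymes compete. The arginases Arg1 and Arg2 split it into ornithine and urea, and nitric oxide synthase Nos2 turns it into citrulline and nitric oxide. The transporter Slc7a2 brings it into the cell, and Ass1 catalyses the first step by which citrulline is made into arginine again. Odc1 commits ornithine to the polyamines, and Gatm passes the amidino group of arginine to glycine in the first step of creatine synthesis. In tumours, myeloid cells that carry arginase are known for taking arginine away from T cells, and Arg1 and Nos2 are the classical opposite markers of macrophage states.

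4T1 is a mammary carcinoma line of the BALB/c mouse. Female BALB/c mice aged 6 to 8 weeks carried 4T1 tumours in the flank, grown from 1000000 implanted cells, and had an intravenous injection on day 7. The labels list 2 samples of mice injected with PBS and 1 sample, TIOs+NIR3, of mice injected with TIOs, an oncolytic nanosystem modelled on the cytotoxic T cell. A further sample carries the title PBS but a protocol that names TIOs, so it was assigned to no group. In every group, PBS included, 980 nm light at 1.0 W cm-2 was listed for 5 min on each of days 8 to 10, with tumours taken on day 13. The published methods give these settings for flow cytometry of tumour lymphocytes and state none in the single-cell section. They give a lower power for the tumour growth experiments. How many animals stood behind a sample was not given in the sources used here, and the flank is not the mammary gland in which such a carcinoma arises.

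The cells of all 4 samples share 1 matrix, in which a suffix of the barcode tells 4 libraries apart. No source used here ties a suffix to a sample. The libraries are therefore called 1 to 4, each value is that of a library of unknown treatment, and no PBS and TIOs+NIR3 cells were compared and no test was run. Of 33064 barcodes, 32133 held 300 or more genes and at most 15% mitochondrial UMIs, with 6783 to 8889 cells per library. Median depth was 11698 UMIs per cell in library 1, 2641.5 in library 2, 2695 in library 3 and 7182 in library 4. Over all kept cells the medians of libraries 2 and 3 were thus lower, but some classes did not follow that order. In libraries 1 to 4 the medians were 1576, 1789.5, 1945 and 1736 UMIs in neutrophils and 13974, 21790, 31550 and 37294 in fibroblasts. Macrophages, at 10392, 5322, 4160 and 8675, were lower in libraries 2 and 3. Shares of cells with a UMI are therefore also given after thinning each cell to 1000 UMIs. The libraries shared 101 barcode sequences, and 9 of these marked kept cells of the same class in both libraries.

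The gate placed 28206 cells (87.8%) in a class, and 3927 stayed ungated. Neutrophils (8922 cells), monocytes (4694) and macrophages (3292) were the main leucocyte classes, and 787 cells that scored alike for monocyte and macrophage markers were kept as a class of their own. Each level is given as CPM, for which all cells of a class in a library were summed and scaled to 1000000 UMIs. Cells had been sorted for CD45, the leucocyte protein encoded by Ptprc. Yet 4005 cells were gated as tumour or epithelial and 3919 as fibroblast, where Ptprc stood at 9.86 and 17.2 CPM, against 237 CPM in macrophages and 696 CPM in neutrophils. Libraries differed in make-up. Of the tumour cells, 3762 came from library 1, and of the monocytes 3521 from library 4. Pooled values are led by the library that gave the cells, so levels are given by library. Intervals are exact 95% intervals (Poisson for CPM, Clopper-Pearson for shares) and cover counting error only.

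Positions are on GRCm38. All 7 genes are protein coding, and values are for whole genes. Arg1 lies on the minus strand of chromosome 10 from 24915221 to 24927484. Arg2 is on chromosome 12, plus strand, at 79130777 to 79156301, where Vti1b and Gm48780 overlap it on the other strand. Nos2 is on chromosome 11, plus strand, at 78920787 to 78960254. Slc7a2 is on chromosome 8, plus strand, at 40862396 to 40922308, and overlaps Gm26584 on the other strand. Odc1 shares chromosome 12 with Arg2, at 17544794 to 17551505 on the plus strand, where Gm22748 overlaps it on the same strand. Ass1 (31470207 to 31520672, plus strand) and Gatm (122594467 to 122611303, minus strand) are both on chromosome 2. Whether the counting used strand was not given in the sources used here. It is therefore not known whether UMIs of Arg2 and Slc7a2 were kept apart from those of their partners on the other strand. For Odc1 and Gm22748 strand would not separate them. Odc1 has processed pseudogenes in the mouse, and how reads with several matches were treated was not given either.

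Arg1, the cytosolic arginase, was a gene of monocytes and macrophages. In macrophages it stood at 293, 1569, 1434 and 1243 CPM in libraries 1 to 4, and in monocytes at 410, 1633, 933 and 443 CPM. The cells with markers of both stood at 523, 2476, 2299 and 1326 CPM and ranked first in 4 of 4 libraries. In library 1 that lead over the monocytes was within the counting intervals. Library 1 was the lowest of the 4 in each of the 3 classes. By the median over libraries the order was the unsplit cells (1812 CPM), macrophages (1339 CPM) and monocytes (688 CPM), whose ranges overlapped. Neutrophils followed by median at 26.0, 144, 47.1 and 168 CPM, all below the lowest monocyte value. Type 2 dendritic cells had a lower median of 22.0 CPM but ranged from 20.6 to 257 CPM over 3 libraries. T cells held 15.2, 46.0, 42.4 and 76.6 CPM, a range that overlapped that of the neutrophils. Whether T cells made these transcripts themselves was not tested.

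At 1000 UMIs per cell Arg1 was detected in 14.8%, 40.02%, 50% and 42.9% of macrophages and in 14.4%, 37.2%, 32.2% and 18.7% of monocytes of libraries 1 to 4. In neutrophils the share was 2.24%, 4.53%, 2.08% and 5.08%. T cells gave 1.83%, 2.41%, 1.59% and 3.05%, from 7, 2, 7 and 5 cells, slightly below the neutrophils in each library and far below the other classes. Without thinning the shares were 33.7%, 55.8%, 67.0% and 68.98% in macrophages (pooled median depth 7572.5 UMIs) and 6.14%, 19.0%, 5.96% and 19.8% in T cells (3954 UMIs). Of all 74237 Arg1 UMIs, macrophages held 32.1%, monocytes 28.8%, the unsplit cells 12.7% (12.5 to 13.0%) and ungated cells 16.7%. The UMIs were unevenly spread. Of 1640 macrophages with Arg1, the 164 with the most UMIs held 45.2% of them, and the highest cell had 234. Of 553 neutrophils with Arg1, the 55 with the most held 70.8% of the neutrophil UMIs.

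Within macrophages Arg1 was higher where MHC class II was lower. Macrophages at or below their library's median of the MHC class II genes, which present antigen to CD4 T cells, had 413, 1785, 1550 and 1371 CPM in libraries 1 to 4. Those above it had 181, 1319, 1303 and 1086 CPM. The order was the same in 4 of 4 libraries. A split by Cd163, the haemoglobin scavenger receptor, gave no common order. Macrophages with Cd163 stood at 657, 1266, 1407 and 1330 CPM and those without at 287, 1928, 1454 and 1171 CPM, so the positive cells were higher in libraries 1 and 4 only.

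Arg2, the mitochondrial arginase, was a neutrophil gene here. Its level in neutrophils was 544, 985, 1101 and 657 CPM in libraries 1 to 4. Monocytes stood at 234, 285, 386 and 176 CPM, and macrophages at 100, 183, 197 and 105 CPM. Neutrophils ranked first in 4 of 4 libraries with no overlap of intervals, and their lowest library was above the highest of any class below them. In each of the 3 classes libraries 2 and 3 were above libraries 1 and 4. T cells were at 11.1, 20.2, 25.9 and 13.1 CPM. Neutrophils held 47.8% (47.3 to 48.4%) of the 35557 Arg2 UMIs but 5.19% of all UMIs. Monocytes held 21.7% and macrophages 9.93% of those of Arg2.

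After thinning, Arg2 was detected in 43.4%, 59.8%, 62.5% and 45.8% of neutrophils, against 0.783%, 3.61%, 2.05% and 1.83% of T cells. Unthinned, the neutrophil shares were 55.2%, 76.4%, 80.7% and 64.4% at a pooled median depth of 1813 UMIs. Arg2 did not sort with neutrophil subsets. Retnlg marks neutrophils that have recently left the marrow, and Cd274 encodes PD-L1. Neutrophils with Retnlg had 499, 1002, 1085 and 646 CPM of Arg2, those with Cd274 but no Retnlg 579, 952, 1135 and 712 CPM, and those with neither 654, 1002, 1099 and 657 CPM. No subset was the highest in all libraries. Arg1 and Arg2 were thus led by different myeloid classes in every library.

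**Figure D1:**
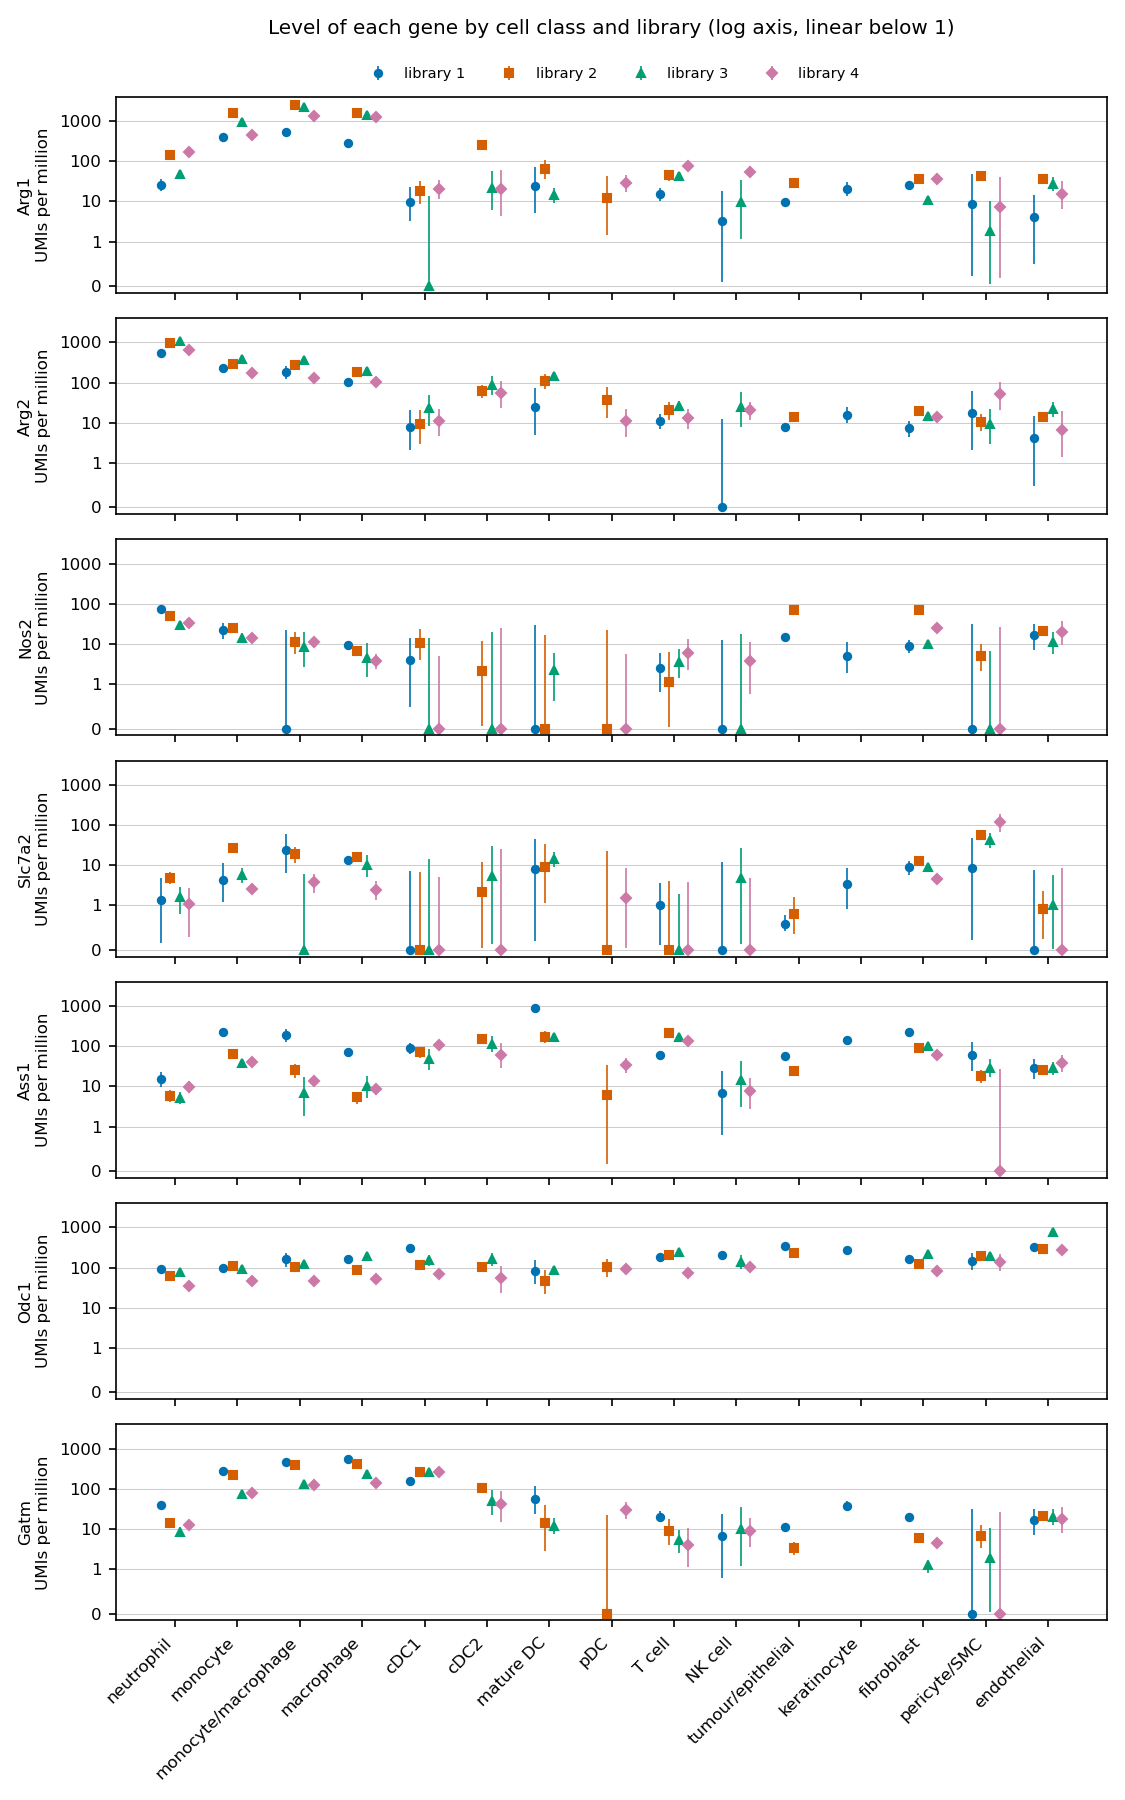
Level of each of the 7 genes by cell class, in CPM on an axis that is linear near 0 and logarithmic above. Each point is 1 library (1 to 4) with its exact 95% Poisson interval, shown for classes with 10 or more cells and 100000 or more UMIs in that library. Arg2 is highest in neutrophils (544 to 1101 CPM) and Arg1 in the monocyte and macrophage classes.

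Nos2, the inducible nitric oxide synthase, was low in all leucocytes and was not led by macrophages. Neutrophils held 73.2, 48.4, 30.0 and 33.1 CPM in libraries 1 to 4 and ranked first in libraries 1, 3 and 4. Macrophages held 9.45, 6.83, 4.60 and 3.72 CPM, the last 2 from 5 and 23 UMIs, and monocytes 21.7, 25.0, 14.5 and 14.3 CPM. T cells were at 2.53, 1.12, 3.62 and 6.05 CPM, so in library 4 the macrophages lay below them. Endothelial cells were at 16.3, 20.7, 11.01 and 20.2 CPM, all below the lowest neutrophil value. Fibroblasts varied most, at 8.88, 71.9, 10.2 and 25.2 CPM, and led in library 2, within the interval of the tumour cells. The tumour cells of library 2 were at 68.9 CPM and those of library 1 at 15.3 CPM.

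Fibroblasts and tumour cells, with median depths of 28238 and 19162 UMIs, held most of the 8681 Nos2 UMIs, 47.3% and 21.3%. These deep classes also held 119592631 and 86175170 of the 354742109 UMIs of all genes. Neutrophils held 8.59% (8.01 to 9.20%) and macrophages 2.42%. At 1000 UMIs per cell Nos2 was detected in 5.76%, 3.92%, 2.85% and 2.43% of neutrophils and in 1.09%, 0.798%, 1.69% and 0.307% of macrophages. In T cells as a whole the share was 0.280%. In neutrophils without Retnlg and without Cd274 the level of Nos2 was even over libraries, at 28.8, 28.7, 27.4 and 36.1 CPM. With Retnlg it was 92.5, 42.8, 33.2 and 28.9 CPM, and with Cd274 alone 55.7, 74.0, 27.7 and 38.9 CPM. The high value of library 1 was that of its Retnlg neutrophils and the high value of library 2 that of its Cd274 neutrophils. In fibroblasts the high value of library 2 stood in cells with Lrrc15, a gene of myofibroblast-like tumour fibroblasts, at 116 CPM from 2198 UMIs. The other libraries had 6.82, 11.9 and 25.7 CPM there. In library 4 the highest fibroblasts were instead those with neither Lrrc15 nor Dpt, at 115 CPM from 264 UMIs.

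**Figure D2:**
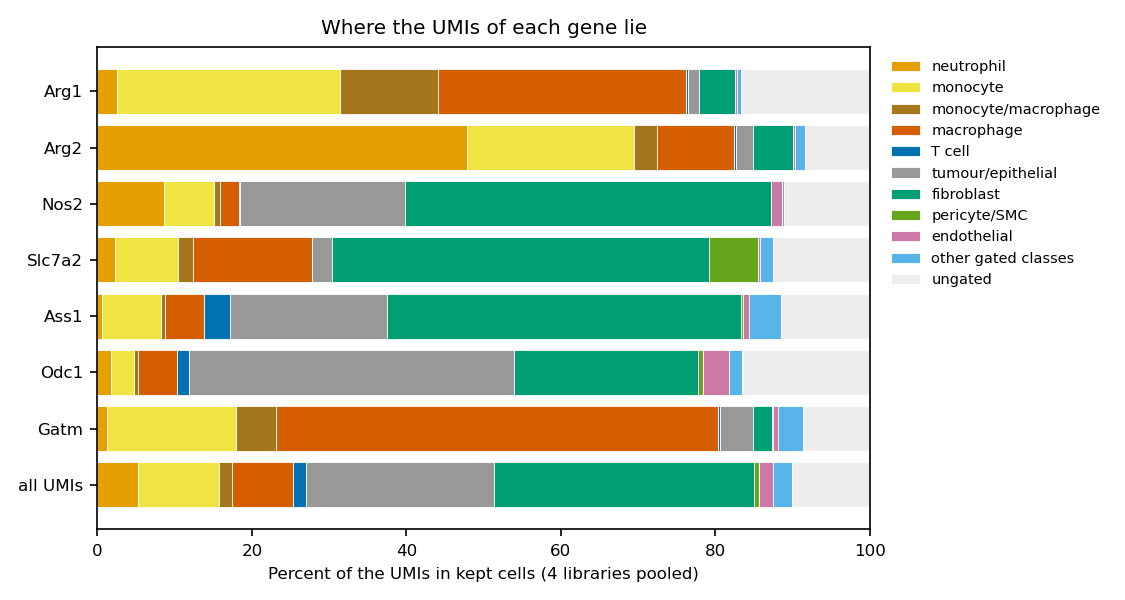
Share of the UMIs of each gene (percent of all its UMIs, 4 libraries pooled) held by each cell class, as stacked bars, with a last bar for the UMIs of all genes. Macrophages held 57.2% of the Gatm UMIs, neutrophils 47.8% of those of Arg2, and fibroblasts 47.3% of those of Nos2.

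Arg1 and Nos2, which compete for arginine, were not kept apart by cell. A UMI of each was present in 92 of 3292 macrophages (2.79%, 2.26 to 3.42%), and the product of the single shares is 2.06%. These were 46, 23, 5 and 18 cells of libraries 1 to 4. In T cells 3 of 1095 (0.274%) held both, and the product there is 0.133%. Deeper cells hold more of every gene, so thinned cells were also counted. Among those, Nos2 was detected in 1.56% (0.878 to 2.57%) of macrophages with Arg1 and in 0.558% (0.288 to 0.972%) of the rest, intervals that overlap, and 15 of 3111 macrophages held both. By level, Nos2 was 26.3, 15.0, 22.5 and 7.17 CPM in macrophages with Arg1 and 9.17, 3.33, 11.2 and 0 CPM in the others, higher in 4 of 4 libraries on few UMIs. In monocytes Nos2 was detected in 4.17% (3.03 to 5.60%) of cells with Arg1 and 0.915% (0.631 to 1.28%) of the rest, with no overlap. Those shares are pooled, and by library their intervals overlapped in libraries 1 and 2 but not in 3 and 4. By level, Nos2 was 41.7, 38.0, 62.5 and 43.2 CPM in monocytes with Arg1 and 14.0, 11.2, 5.39 and 10.3 CPM in the others. It was higher in 4 of 4 libraries, but only 1, 5, 10 and 26 thinned monocytes held both genes. In neutrophils the shares were 3.64% (1.83 to 6.42%) and 3.35% (2.96 to 3.76%), whose intervals overlap. Neutrophils with Arg2 had Nos2 in 3.05% (2.58 to 3.58%) and those without in 3.75% (3.16 to 4.42%), which overlap too.

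The state of the cells that held Arg1 or Nos2 was described with gene sets. Cells with and without a UMI of the gene were thinned to the same depth and their level compared in each library, as a log2 difference after adding 10 CPM. A gene was counted as higher where the difference was 1.5-fold or more in every library. In macrophages split by Arg1, 0.323% of 7744 genes were higher and 0.207% lower. Of 10 genes of hypoxia and glycolysis, 4 were higher, and the median difference was 0.91 against -0.03 over all genes. Bnip3, a mitophagy receptor, was at 200, 322, 416 and 394 CPM in macrophages with Arg1 and at 92.7, 121, 135 and 102 CPM in those without. Ero1a, the oxidase of protein folding that the matrix lists as Ero1l, differed by a median of 1.16, the glycolytic enzyme Pgk1 by 0.93, and Ndrg1, a stress-induced gene, by 0.87.

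Of the interleukin-4 and interleukin-13 set in macrophages, the chemokine Ccl24 was higher, at 321, 481, 393 and 276 CPM with Arg1 and 80.7, 266, 146 and 172 CPM without. Retnla, Mgl2, Cd163 and Mrc1 of the same set were not counted as higher. None of 10 interferon-gamma response genes passed in either direction. None of 4 MHC class II genes passed either. All 4 were lower in cells with Arg1 in every library, by less than the limit in some, and their median difference was -0.93. How many of the 7744 genes were lower in every library by any amount was not counted. H2-Ab1 stood at 3605, 214, 101 and 86.0 CPM with Arg1 and at 4996, 419, 393 and 124 CPM without. Library 1 macrophages thus had far more MHC class II on both sides of the split.

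In monocytes split by Arg1, where 0.665% of 7216 genes were higher and 0.693% lower, the hypoxia genes Ero1a, Ndrg1 and Pgk1 were higher by medians of 1.33, 1.05 and 0.84. Of 8 lipid-associated genes, 3 were higher, namely Spp1 (osteopontin), Fabp5 (a fatty acid carrier) and Trem2 (a lipid receptor). Spp1 was at 4000, 2057, 2636 and 4156 CPM with Arg1 and at 839, 285, 1043 and 1806 CPM without. The neutrophil chemokine Cxcl3 was higher by a median of 1.64. None of the 4 MHC class II genes passed. They were lower in every library, by a set median of -1.57 against -0.04 over all genes. How many of the 7216 genes were lower in every library by any amount was not counted. The interferon-gamma genes did not pass.

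In neutrophils split by Nos2, 0.334% of 5980 genes were higher and 0.468% lower. Of the 10 hypoxia genes 3 were higher, and the set median was 0.78 against -0.07 over all genes. Ero1a was at 1722, 1155, 524 and 911 CPM with Nos2 and at 744, 514, 241 and 230 CPM without. Bnip3 differed by a median of 1.18 and Egln3, an oxygen sensor, by 0.90. Myc was lower, by a median of -0.99. No interferon-gamma, NF-kB or MHC class II gene passed. In neutrophils split by Arg2, 0% of 5981 genes were higher and 0% lower. Arg2 was detected in 4687 of 8313 thinned neutrophils, against 6552 of 8922 unthinned. A thinned cell without Arg2 may therefore have held it before thinning. This split cannot tell whether Arg2 goes with a neutrophil state.

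Fibroblasts could be split by Nos2 in libraries 2 and 4 only, where 81 and 34 thinned cells held it. With 2 libraries 5.9% of 8278 genes were higher and 9.76% lower, so a single gene passed more easily than in the splits over 4 libraries. Of the 10 hypoxia genes, 6 were higher. Vegfa, the endothelial growth factor, was at 481 and 588 CPM with Nos2 and at 155 and 129 CPM without, and Egln3, Ero1a, the glucose transporter Slc2a1, Bnip3 and Pgk1 passed with it. Of the interferon-gamma genes 4 were lower. Cxcl10, a T cell chemokine, was at 61.7 and 176 CPM with Nos2 and at 346 and 426 CPM without. Irf1 and Gbp3 differed by medians of -1.29 and -1.56. For Cxcl9 the thinned cells with Nos2 held 0 UMIs, so no size is given. Of the other sets, Cxcl3 and H2-Ab1 were higher, and Ccl24, Il1b, Il6, Gpnmb, Lpl, Mki67, Top2a and Gatm lower.

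**Figure D3:**
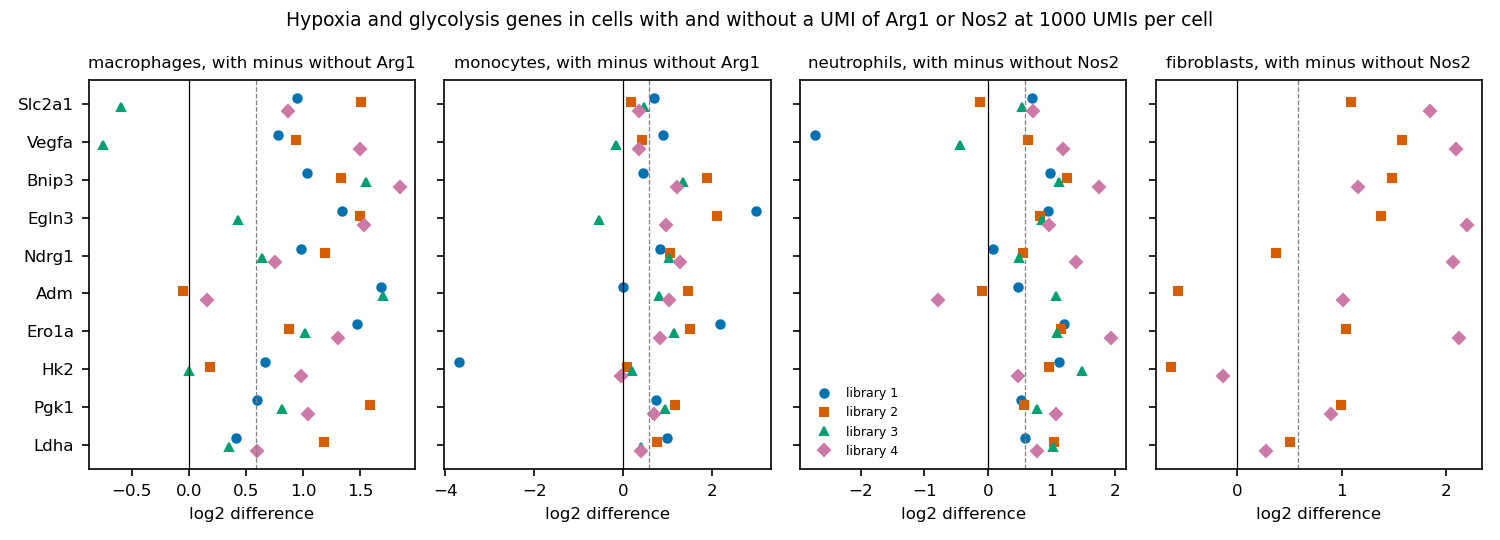
Log2 difference in level (cells with minus cells without Arg1 or Nos2, each thinned to 1000 UMIs, after adding 10 CPM) for the 10 hypoxia and glycolysis genes. Each point is 1 library and the dashed line marks 1.5-fold. In macrophages with Arg1 the 4 points of Bnip3 lie between 1.03 and 1.85.

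Slc7a2, the cationic amino acid transporter CAT2, was scarce, with 2089 UMIs in all. Pericytes and smooth muscle cells, the contractile cells around vessels, held 57.8, 42.6 and 117 CPM in libraries 2, 3 and 4 and ranked first there. In library 1 their level of 8.66 CPM rested on 1 UMI in 13 cells. The 12 cells of library 4 held 16 UMIs. Macrophages followed at 13.2, 15.8, 10.1 and 2.43 CPM and fibroblasts at 8.88, 13.0, 8.84 and 4.41 CPM. The ranges of these classes overlapped that of the pericytes because of library 1. Monocytes of library 2 stood at 26.6 CPM and those of the other libraries between 2.59 and 5.79 CPM. T cells held 2 UMIs, both in library 1. In macrophages Slc7a2 was higher at low MHC class II in libraries 1 to 3 (18.5, 18.1 and 15.6 CPM against 8.17, 13.1 and 3.94 CPM) but not in library 4 (2.35 against 2.52 CPM). By UMIs, fibroblasts held 48.8%, macrophages 15.4% and pericytes 6.37% (5.36 to 7.5%). Of the 354742109 UMIs of all genes these classes held 119592631, 28365749 and 2402450.

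Ass1, argininosuccinate synthase, was shared by dendritic cells, T cells and fibroblasts among the ranked classes. Mature dendritic cells, which carry antigen to T cells, held 919 (758 to 1105), 171 and 173 CPM in libraries 1 to 3, from 17, 21 and 197 cells. Library 4 had 3 such cells and was left out of the ranking. T cells held 61.8, 210, 168 and 133 CPM, type 2 dendritic cells 150, 115 and 61.9 CPM in libraries 2 to 4, and fibroblasts 229, 92.9, 103 and 60.1 CPM. The ranges of these classes overlapped. Mature dendritic cells ranked first in libraries 1 and 3 and T cells in libraries 2 and 4, but outside library 1 these leads were within the intervals of the next class. Neutrophils were low, at 15.3, 5.82, 5.30 and 9.89 CPM.

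Library 1 stood apart for Ass1. Its monocytes were at 227 CPM against 64.8, 38.9 and 41.0 CPM in the others, and its macrophages at 73.1 CPM against 5.31, 10.1 and 8.41 CPM. Its monocytes had the lowest median depth of the 4 libraries (5265 UMIs) and its macrophages the highest (10392 UMIs). Nearly all tumour cells, which held 57.7 CPM of Ass1, also came from this library. So did all 113 keratinocytes, a class that was not ranked, at 144 CPM (123 to 167). The part of these 2 classes in the difference was not tested.

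Among T cells Ass1 was highest in those with Foxp3, the factor of regulatory T cells. It was at 395, 368 and 312 CPM in libraries 1 to 3, from 29, 23 and 77 cells, and at 207, 106 and 113 CPM in CD4 T cells without Foxp3. CD4 T cells without Foxp3 in library 4 held 111 CPM. CD8 T cells could be read in library 1 only, where 246 cells held 18.6 CPM. The low value of T cells in library 1 thus went with its many CD8 T cells. Odc1 had no such order. Foxp3 cells held 180, 255 and 314 CPM of it and CD4 T cells without Foxp3 207, 139 and 215 CPM in the same libraries.

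**Figure D4:**
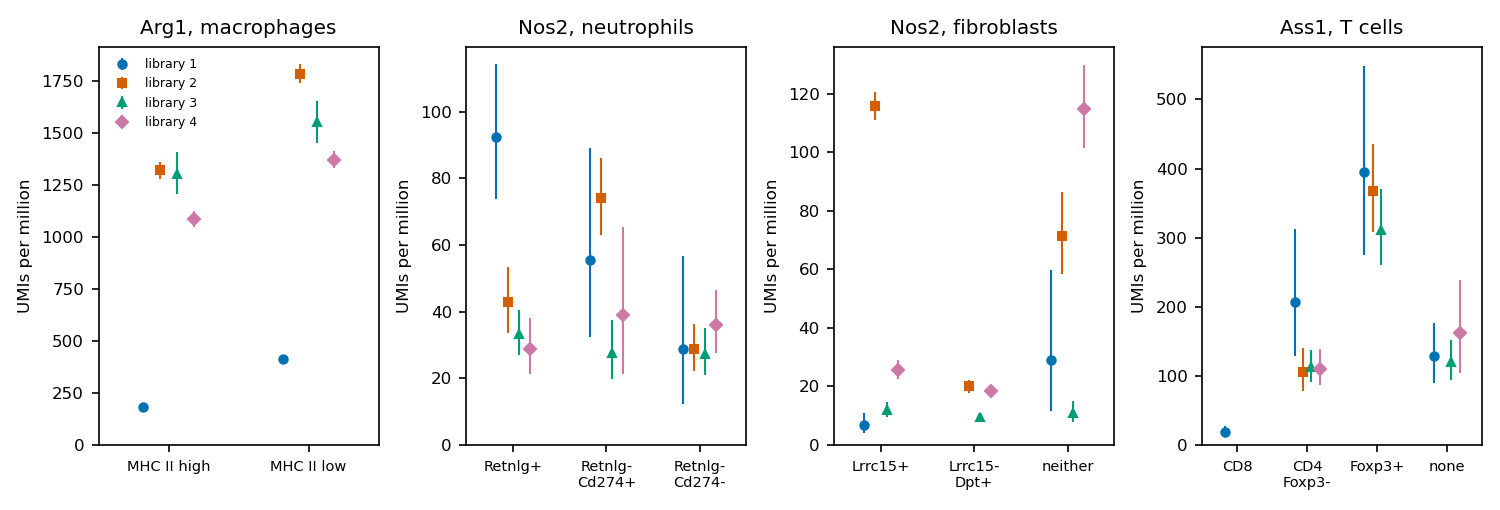
Levels in CPM within 4 classes, by subset and library, with exact 95% Poisson intervals for subsets of 20 or more cells. The panels are Arg1 in macrophages by MHC class II, Nos2 in neutrophils by Retnlg and Cd274, Nos2 in fibroblasts by Lrrc15 and Dpt, and Ass1 in T cells, where Foxp3 cells hold 312 to 395 CPM and CD8 T cells 18.6 CPM.

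Odc1, ornithine decarboxylase, was found in every class and was led by non-immune cells. Endothelial cells held 329, 285, 752 and 279 CPM in libraries 1 to 4 and ranked first in libraries 2 to 4. Tumour cells held 352 and 228 CPM in libraries 1 and 2, and their lead in library 1 was within the intervals. T cells were the highest ranked leucocytes by median, at 180, 202, 248 and 74.6 CPM, all below the lowest endothelial value. Macrophages held 162, 88.8, 193 and 51.3 CPM, monocytes 98.7, 110, 92.8 and 45 CPM, and neutrophils 94.5, 61.3, 76.3 and 35.0 CPM. In each of these leucocyte classes library 4 was the lowest. Fibroblasts, at 166, 121, 217 and 80.7 CPM, were lowest in library 4 as well. By UMIs, tumour cells held 42.1%, fibroblasts 23.8% and endothelial cells 3.31% of 69211. Of the 354742109 UMIs of all genes these classes held 86175170, 119592631 and 6342554.

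Thinned, Odc1 was detected in 26.3%, 21.2%, 46.8% and 18.8% of endothelial cells. The share was 26.2% and 18.6% for tumour cells (libraries 1 and 2), and for neutrophils it was 8.80%, 4.70%, 5.97% and 2.76%. Tumour cells with Mki67 or Top2a, genes of dividing cells, held 378 and 269 CPM, against 309 and 153 CPM in tumour cells without, in both libraries that had them. After thinning, 0.38% of 7894 genes were higher and 0.266% lower in tumour cells with Odc1, and none of 6 proliferation genes was among them. The chemokine Ccl3 was lower by a median of -0.75, and Arg1 was at 4.14 CPM with Odc1 and 15.8 CPM without in library 1. In library 2 the 45 tumour cells with Odc1 held 0 UMIs of Arg1 and those without 35.5 CPM, so no size is given there.

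Gatm, glycine amidinotransferase, was a gene of macrophages and type 1 dendritic cells, the class that cross-presents antigen to CD8 T cells. Macrophages held 553, 424, 231 and 136 CPM in libraries 1 to 4, a spread of levels in which library 4 was the lowest. Type 1 dendritic cells held 158, 266, 264 and 269 CPM, from 33, 36, 15 and 46 cells, and varied less. Macrophages ranked first in libraries 1 and 2, within the intervals of the unsplit monocyte and macrophage cells at 464 and 384 CPM. Type 1 dendritic cells ranked first in libraries 3 and 4, and their interval overlapped that of the macrophages in library 3. Monocytes held 271, 219, 73.9 and 79.7 CPM, with the same 2 libraries above the others as in macrophages. Type 2 dendritic cells were at 107, 49.5 and 41.3 CPM in libraries 2 to 4. Neutrophils held 38.6, 14.0, 8.39 and 12.8 CPM and T cells 20.3, 8.97, 5.17 and 4.03 CPM.

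Macrophages held 57.2% (56.6 to 57.9%) of the 20808 Gatm UMIs and monocytes 16.7%. The thinned share of macrophages with Gatm was 39.3%, 34.0%, 21.3% and 12.6%, against 0.654% of all T cells. In macrophages of library 1 Arg1 was the lowest of the 4 libraries and Gatm the highest, while over libraries 2, 3 and 4 both were highest in library 2 and lowest in library 4. Within libraries the thinned share of macrophages with Gatm had no common order between cells with and without Arg1, at 40% and 39.2% in library 1, 34.7% and 33.6% in library 2, 15.7% and 27.0% in library 3, and 14.0% and 11.6% in library 4. In macrophages split by Gatm, 0.0129% of 7771 genes were higher and 0.0901% lower, none of them in a gene set.

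The genes most like each of the 7 were sought among 8728 genes, by Pearson's r of log2(CPM + 10) over 30 sums of 1 class in 1 library with 50 or more cells. The sums share libraries, so r is a description. Arg1 was most like Mrc1 (r = 0.97), which is also a macrophage marker of the gate, F13a1 (0.95) and Clec4a1 (0.94). Arg2 was most like Ptafr (0.98), Il1rn (0.97) and Cd14 (0.96), all genes of inflammatory myeloid cells. For Gatm they were Fcgr2b (0.93), Tbxas1 (0.93) and Csf1r (0.91), the receptor of macrophage growth. Nos2 was nearest to Ero1l (0.82), the hypoxia gene named above as Ero1a, then to Il13ra1 (0.74) and Plaur (0.74). Odc1 had Rabggtb (0.85), Trmt1 (0.83) and Abcf2 (0.82). The remaining 2 genes had looser neighbours, Cox4i2 (0.73), Rap2a (0.73) and Cd302 (0.72) for Slc7a2, and Nrip1 (0.75), Vdr (0.74) and Cnot2 (0.69) for Ass1. Among the 7 genes themselves r was highest for Arg1 with Gatm (0.80) and lowest for Arg2 with Odc1 (-0.66), and that of Arg1 with Nos2 was 0.03.

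Another 34 genes of transport, the citrulline cycle, nitric oxide, polyamines, hypusination, proline and creatine were counted beside them. Classes were ranked only where 3 or more libraries gave a level, which left out tumour cells, plasmacytoid dendritic cells, keratinocytes, B cells and basophils. By median over libraries fibroblasts led 8 of the 34, among them Slc7a3 at 0.177 CPM, and endothelial cells led 6. For 10 genes over 50% of the UMIs lay in 1 class, among them Otc with 1 UMI. Fibroblasts held 119592631 of the 354742109 UMIs of all genes in kept cells. The same counts were not taken over all genes, so these are a description of the list. Of the genes of ornithine and proline, Oat, Aldh18a1 and Pycr1 were led by fibroblasts. Oat held 217 CPM there (163 to 245 over libraries), Aldh18a1 30.5 CPM and Pycr1 17.5 CPM, and fibroblasts held 65.3%, 63.6% and 85.8% of their UMIs. The next class for Oat, pericytes, overlapped at 130.0 to 302 CPM. Spermidine synthase Srm (168 CPM), the antizyme inhibitor Azin2 (26.8 CPM) and the transporter Slc7a6 (24.5 CPM) also had fibroblasts first. Of the enzymes that break polyamines down, Smox and Sat1 were led by neutrophils and Paox by macrophages (24.5 CPM). Spermine oxidase Smox was at 625 CPM (477 to 764) in neutrophils and 241 CPM (184 to 308) in monocytes, with no overlap. Sat1, the spermidine acetyltransferase, was at 783 CPM (625 to 977) and 533 CPM (453 to 693), which overlap.

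For nitric oxide, endothelial Nos3 was at 114 CPM (89.9 to 119) in endothelial cells, with 5.50 CPM in the next class, and these cells held 54.5% of its UMIs. Gch1, which makes the cofactor of the synthases, was at 156 CPM in monocytes and 155 CPM in neutrophils. Ddah1, which breaks down an inhibitor of the synthases, was highest in fibroblasts (118 CPM, 57.0 to 305), with endothelial cells overlapping (103 CPM, 84.9 to 126). Ddah2 was highest among ranked classes in endothelial cells (96.5 CPM), though tumour cells held 49.7% of its UMIs. Of the creatine genes, Gamt, the enzyme that follows Gatm, was led by a different class. It was at 163 CPM (130.0 to 292) in pericytes, with macrophages next at 27.6 CPM (24.8 to 29.4). The creatine kinase Ckb was highest in type 1 dendritic cells (1100 CPM, 876 to 1362), and the creatine transporter Slc6a8 in macrophages (62.4 CPM, 7.86 to 85.9). Of the regulators of Odc1, the antizyme Oaz1 was highest among ranked classes in type 1 dendritic cells. Oaz2 was highest in pericytes (181 CPM) and the antizyme inhibitor Azin1 in monocytes (188 CPM). The translation factor Eif5a, which carries the polyamine-made hypusine, and spermine synthase Sms (118 CPM) were highest in NK cells by median among ranked classes. The next classes overlapped. Slc7a7 (91.0 CPM) and Slc3a2 (349 CPM), the chains of a transporter that exports arginine, were highest in the unsplit monocyte and macrophage cells among ranked classes. Pooled plasmacytoid dendritic cells, which were not ranked, held 534 CPM of Slc3a2, 153 CPM of Sms and 1645 CPM of Oaz1. Keratinocytes, not ranked either, held 1349 CPM of Eif5a. The liver enzymes of the urea cycle were at the limit of detection, Cps1 with 0 UMIs and Otc with 1 UMI in 32133 cells. The neuronal synthase Nos1 had 48 UMIs and the transporter Slc7a3 72 UMIs.

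**Figure D5:**
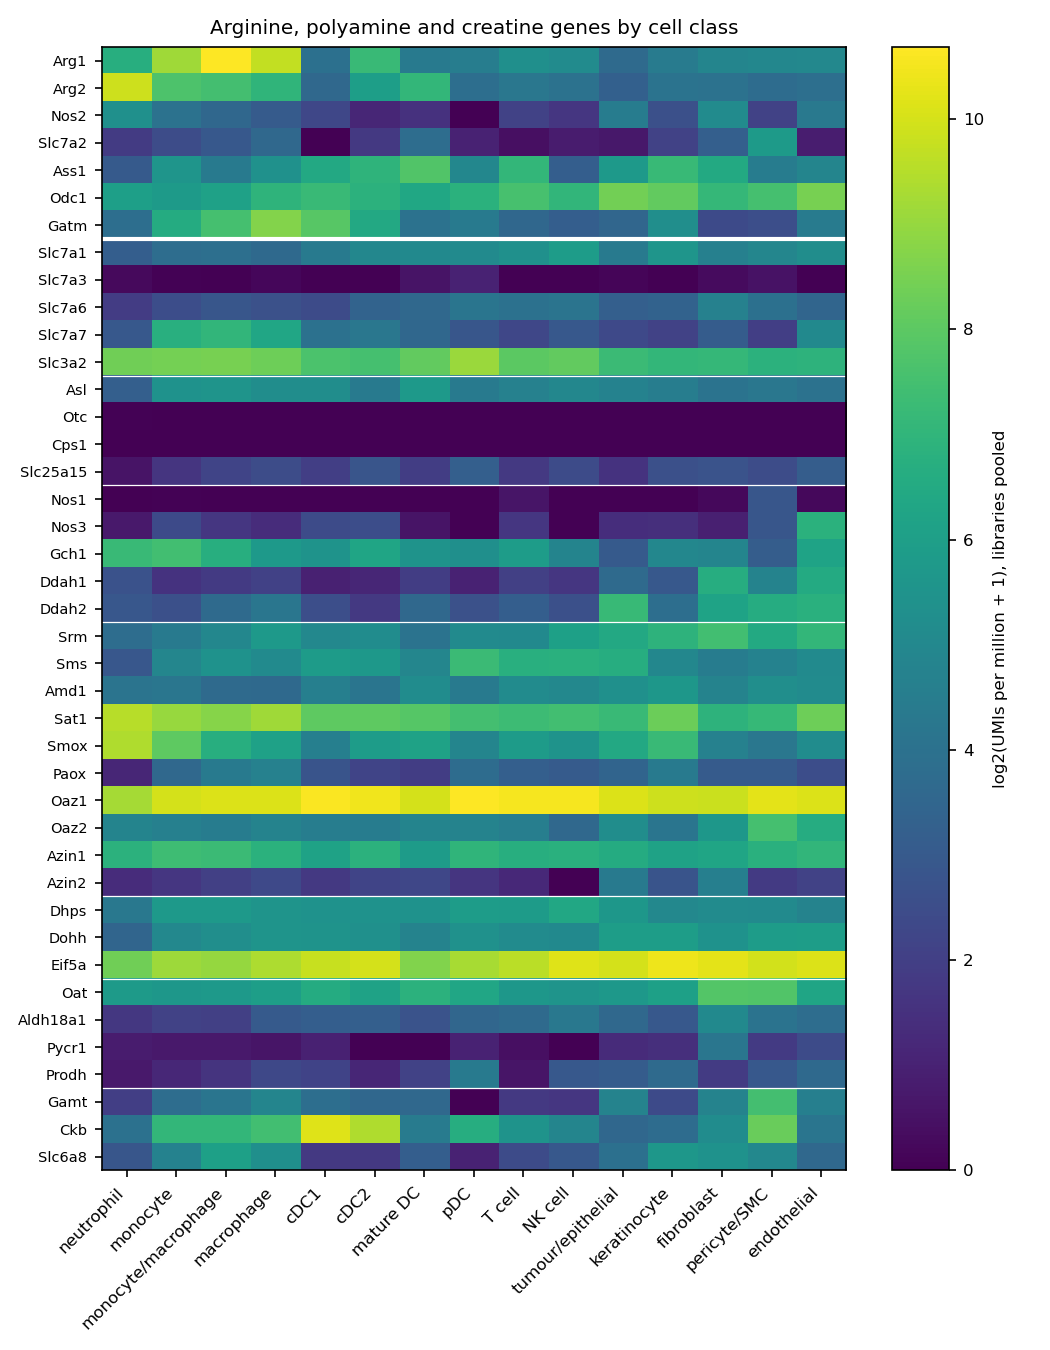
Level of the 7 genes and of the other 34 genes of arginine and polyamine metabolism in 15 cell classes, as log2(CPM + 1) with the 4 libraries pooled, to be read along a row, since rows are not scaled for gene length. Smox and Sat1 are highest in the neutrophil column, Pycr1 in the fibroblast column and Nos3 in the endothelial column.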

How the data were processed

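Cells of 4T1 tumours sorted for CD45 were run on the 10x Genomics platform (3' kit). The authors deposited raw UMI counts in whole numbers for 55450 genes and 33064 barcodes, with 4 libraries in 1 matrix and no scaling. Cell Ranger aligned reads, called cells, counted UMIs and joined libraries. The matrix header names version 6.1.2, the methods 3.0.2 and the submitters' processing notes 2.1.1 with build mm10. The annotation was not given in the sources used here, and all 55450 identifiers were found in GENCODE vM21 (GRCm38). No suffix could be mapped to a sample, so groups were not compared.

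Kept cells had 300 or more genes and at most 15% mitochondrial UMIs. For each cell, free RNA was taken to be 10% of its UMIs, with the mean profile of its library. The amount expected for each marker was taken off the marker UMIs. Markers were scaled to their 90th percentile and averaged by class, and a cell joined a class with 2 or more markers and a lead of 0.1 over the next. Mature dendritic cells also needed 200 CPM or more of Ccr7 and Ccl22 together. This scoring rule and the limits for ranking a class in a library (10 cells, 100000 UMIs, 3 libraries) were set after seeing the data. Klra8 had 0 UMIs and was not used. Doublets were kept, because the deposit does not mark them. Thinning to 1000 UMIs left out 1890 cells. The genes named are the 7 genes, the pathway genes above 100 CPM in a class or with over 50% of their UMIs in 1, fixed gene sets, and the 3 genes most like each. Paox, Nos1, Slc7a3 and Cps1 fall outside this rule and were named after their values were seen. 1 further gene of the pathway list was left out of the counts and is not reported here. Members and lists were chosen with earlier results of these data known. The steps were tested on simulated data. Kept cells held 354742109 UMIs, 69144957 to 108363974 per library, and depth limits precision as the intervals show. The alternatives were other cell filters, stricter gates, thinning, 2 UMIs for detection, removal of the 5% highest Scrublet scores and leaving out each library. Software was Python 3.11.15 with numpy 2.4.6, scipy 1.17.1, pandas 2.3.3, scanpy 1.11.5 and matplotlib 3.10.9.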

Additional observations from a re-analysis of the deposited data

How the results depend on the processing

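No paired analysis was possible because the libraries could not be mapped to samples and no test was run. Pooled levels in the leading class moved beyond their counting interval under some settings. Arg1 in the unsplit monocyte and macrophage cells (1612 CPM) became 1422 CPM with 1 marker more and 1240 CPM with a wider lead. It was 1786 CPM thinned and 1666 CPM without the 5% of cells of highest Scrublet score. Arg2 in neutrophils (925 CPM) became 965 CPM with a wider lead, 964 CPM thinned and 947 CPM without the cells of highest score. Nos2 in neutrophils (40.6 CPM) became 37.1 CPM and Gatm in macrophages (419.9 CPM) 455 CPM with a wider lead. Without the cells of highest score Gatm was 432 CPM. Thinning gave Slc7a2 in pericytes 90.9 CPM (48.4 to 155, from 55.4) and Ass1 in mature dendritic cells 153 CPM (106 to 213, from 217). Both thinned intervals overlapped those of the full counts (46.4 to 65.6 and 197 to 237 CPM). Shares of UMIs went for Arg1 from 12.7% to 9.96% with 1 marker more and 13.7% without the cells of highest score. For Arg2 they went from 47.8% to 47.3% with 500 genes, 47.3% with 1 marker more and 49.9% without those cells. The share of Gatm went from 57.2% to 59.97% without them. Macrophages with both Arg1 and Nos2 went from 2.79% to 0.668% at 2 UMIs of each and 0.482% thinned. Other settings stayed within the interval.

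Leaving out 1 library at a time gave levels of 1419 to 2238 CPM for Arg1, 822 to 993 for Arg2, 36.4 to 46.7 for Nos2, 50.5 to 59.1 for Slc7a2, 173 to 420 for Ass1 (the highest without library 3), 288 to 536 for Odc1 and 281 to 499 for Gatm. Shares of UMIs ran from 9.89 to 14.0% for Arg1, 39.1 to 57.0% for Arg2, 6.82 to 10.4% for Nos2, 3.39 to 7.48% for Slc7a2, 0.937 to 2.47% for Ass1, 1.81 to 5.91% for Odc1 and 36.1 to 67.8% for Gatm. Thinned cells counted 1000 UMIs each, so pericytes, mature dendritic cells and endothelial cells fell below the 100000 UMIs needed in 3 libraries. They left the ranking, and the class then first by median was macrophages for Slc7a2 and T cells for Ass1 and Odc1. That change does not tell whether their lead depends on depth. Mature dendritic cells were ranked in 3 libraries only, so they also left the ranking without library 1, 2 or 3. T cells were then first for Ass1 without a comparison with them. For Gatm, type 1 dendritic cells were first by median without library 1 or 2. The count of hypoxia genes was 4 to 7 for Arg1 in macrophages (7 without library 3) and 3 to 5 in monocytes (5 without library 1). It was 3 to 4 for Nos2 in neutrophils and 6 to 8 in fibroblasts, where 1 library was left. These settings were added after seeing the data. A gene had to pass in every library used, so leaving 1 out could only keep or raise the count. Removing the 5% of cells with the highest Scrublet scores left the counts at 4, 3, 3 and 6. No doublets were called. The causes were not tested.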
